A study of Mus musculus with 3 samples.

Results

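The genes described here were Fos, Fosb, Fosl1, Fosl2, Jun, Junb, Jund, Atf3, Egr1 and Ier2, which were chosen by name as the AP-1 factors, the zinc finger factor Egr1 and the response gene Ier2 of the immediate early group. They were 10 of 36530 features counted by single-cell RNA sequencing in 3 mouse melanomas, and their level was followed in each named cell cluster of each tumor as UMIs (counted mRNA molecules) per 1000000 UMIs (CPM) of that cluster. All 3 tumors came from a genetically engineered model on the C57BL/6 background (C57BL/6J in the study's methods) that carries Braf LSL.V600E and Tyr.CreER, in part with the reporter Rosa26 LSL.tdTomato. Tyr.CreER is a tamoxifen-dependent recombinase driven by the tyrosinase promoter of pigment cells, so that 4-OH tamoxifen on the skin switched on mutant Braf in melanocytes, and the stroma and immune cells of the same tumors were not the target of that driver. The untreated group was 1 tumor without drug, the regressed group 1 tumor that shrank on vemurafenib, an inhibitor of mutant Braf, and the progressed group 1 tumor that grew on vemurafenib. The ages of the mice are not given in the labels. With 1 tumor in each group no test between groups was possible, and every interval below is a 95% interval that covers counting error only.

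AP-1 is a dimer of leucine zipper proteins in which a Fos family protein needs a Jun family partner, whereas Jun proteins can also pair among themselves or with Atf factors. Most of these genes are immediate early genes, transcribed within minutes of growth factor, stress or wounding signals without new protein synthesis, and ERK signaling downstream of Braf is one of their classical inducers. Warm enzymatic digestion of tissue is a known inducer as well, and these tumors were taken apart with collagenase and then trypsin at body temperature before cell capture.

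The stretches upstream of Fos and of the 3 Jun genes are shown because Fos held more UMIs than any other of the 10 genes and because Jund moved against Jun and Junb in the counts. Each is the 250 bases before the annotated start in RefSeq (GRCm38.p6), printed 5′ to 3′ on the strand of the gene, with matches to the searched letters in capitals. The Fos stretch lies at chr12:85473640-85473889 on the plus strand, that of Jun at chr4:95052223-95052472 on the minus strand, that of Junb at chr8:84978749-84978998 on the minus strand and that of Jund at chr8:70697489-70697738 on the plus strand.
Fos: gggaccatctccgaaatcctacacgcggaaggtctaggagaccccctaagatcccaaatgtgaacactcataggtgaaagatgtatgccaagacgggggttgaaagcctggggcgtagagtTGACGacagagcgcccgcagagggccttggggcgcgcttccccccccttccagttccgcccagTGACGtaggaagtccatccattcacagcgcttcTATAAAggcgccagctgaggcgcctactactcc
Jun: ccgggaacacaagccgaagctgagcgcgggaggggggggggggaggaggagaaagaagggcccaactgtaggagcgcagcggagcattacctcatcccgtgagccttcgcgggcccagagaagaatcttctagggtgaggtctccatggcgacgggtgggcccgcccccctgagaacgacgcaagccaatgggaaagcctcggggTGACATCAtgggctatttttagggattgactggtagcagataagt
Junb: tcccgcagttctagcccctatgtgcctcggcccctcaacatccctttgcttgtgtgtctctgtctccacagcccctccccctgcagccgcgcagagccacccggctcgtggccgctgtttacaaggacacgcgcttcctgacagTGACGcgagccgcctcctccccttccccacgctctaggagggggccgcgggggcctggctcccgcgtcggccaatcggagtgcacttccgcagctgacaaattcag
Jund: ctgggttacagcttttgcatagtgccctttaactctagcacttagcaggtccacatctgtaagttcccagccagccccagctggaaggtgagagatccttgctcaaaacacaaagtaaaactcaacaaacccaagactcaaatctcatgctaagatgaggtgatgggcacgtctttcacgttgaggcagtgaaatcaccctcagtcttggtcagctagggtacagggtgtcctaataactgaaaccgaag

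In the Fos stretch TGACG, the first part of the cAMP response element TGACGTCA, stood at 129 to 125 and at 66 to 62 bases before the start, and TATAAA stood at 33 to 28 bases before it. The Jun stretch held TGACATCA, the AP-1-like element of that promoter, at 45 to 38 bases, and the Junb stretch held TGACG at 106 to 102 bases. None of the searched letters was found in the Jund stretch. Windows were listed for 7 of the 10 genes. The Fosb window held TGACG at 60 to 56 and the Egr motif GCGGGGGCG at 50 to 42 bases, the Fosl2 window held GCGGGGGCG at 79 to 71 bases, and the Atf3 window held CGTCA, the reverse complement of TGACG, at 7 to 3 bases. The Fosb window (chr7:19310046-19310295, minus strand) overlaps the annotated span of Fosb, which reaches to 19310118. Both of its matches lie inside that span. Over 32851 windows of the same length, and on both strands, TGACG was in 17.8% (the full TGACGTCA, which contains it, in 1.55%), TATAAA in 12.4%, TGACATCA in 2.93%, GCGTGGGCG or GCGGGGGCG in 3.06%, the AP-1 site TGACTCA in 4.46% and a CArG box, the serum response element core, in 1.47%. These matches describe letters in the windows and show no binding. Bases further upstream and other starts of these genes were not searched, so a motif missing here may lie outside the window.

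From the untreated tumor 4095 cells with 22202192 UMIs were read, from the regressed tumor 3726 with 12413268 UMIs and from the progressed tumor 4849 with 26948940 UMIs. The median cell had 4496, 2658 and 4566 UMIs, so the regressed library was the shallowest. Together the 10 genes took 1.29%, 0.855% and 1.36% of all UMIs, and 96.9% to 99.9% of cells had at least 1 UMI of one of them. Haemoglobin genes took 3.96% of UMIs in the regressed tumor against 0.272% and 0.00848%, mitochondrial genes took 1.21% to 1.56%, and Xist, the transcript of the inactive X chromosome, was at least 2-fold below its untreated level in 12 of 12 clusters shared with the regressed tumor. The deposited cell names are not barcodes, so barcodes shared between libraries could not be counted, although 0 names were shared. The cluster names were checked against marker genes. The tumor clusters expressed all 7 melanoma markers when summed, at 1049 to 2267 CPM, but also fibroblast markers at 4357 to 5694 CPM. The cluster named Monocytes2 held 5 of 5 dendritic cell markers at 499 to 857 CPM in each tumor, and the clusters Undefined1 and Undefined2 held keratinocyte markers at 9137 to 28440 CPM. In clusters of the regressed tumor other than red blood cells, red blood cell markers stood at 1131 to 2339 CPM and mast cell markers outside the mast cells at 364 to 1231 CPM. The part of such carried-over RNA, of depth or of sex in the differences below was not tested.

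The untreated tumor and the regressed tumor were compared first, in 3 compartments formed from the deposited cluster names: tumor cells (48 untreated, 410 regressed and 160 progressed cells), stroma (2628, 1918 and 3422 cells) and immune cells (1053, 957 and 683 cells). Summed over the 10 genes, tumor cells held 7381 CPM in the untreated, 3549 CPM in the regressed and 5344 CPM in the progressed tumor. Stroma held 14977, 8883 and 14766 CPM, so in both compartments the regressed tumor was the lowest. Immune cells held 10289, 11311 and 14470 CPM, where the untreated tumor was the lowest. This immune order mixes cell types that were not in all tumors at 20 cells or more. Mast cells, with under 20 cells in the untreated tumor, held 11037 of the 32664 regressed and 15767 of the 43544 progressed immune UMIs of the 10 genes. As log2 ratios of regressed to untreated, the tumor cell sum gave -1.06 (-1.15 to -0.97), the stroma sum -0.75 (-0.77 to -0.74) and the immune sum 0.14 (0.12 to 0.16). The immune value was -0.45 after TMM scaling, a scaling that moved the immune ratios of regressed to untreated by -0.59 where the median feature stood at 0.51 so the direction of the immune sum turned with the scaling. In bulk sums such as these, fewer cells with a gene and less RNA per cell cannot be told apart.

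Against the untreated tumor, 7 of the 10 genes were at least 2-fold lower in regressed tumor cells (Fos, Fosb, Fosl1, Fosl2, Jun, Junb and Atf3), where 6.70% of 6953 features were, and 4 were in cells thinned to 1000 UMIs. In stroma 5 were (Fos, Fosb, Fosl1, Fosl2 and Atf3), against 7.09% of 14791 features, and with TMM scaling 8. In immune cells 3 were (Fosl1, Fosl2 and Atf3), against 3.81% of 12580 features. Jund alone was at least 2-fold higher, and it was so in each compartment, where 16.0%, 13.7% and 25.6% of features were. The median log2 ratio of the 10 genes was -1.16 for tumor cells, -0.99 for stroma and -0.30 for immune cells, beside medians of 0.11, 0.14 and 0.51 over all features tested. The plot of levels by compartment shows the regressed tumor below the other two for Fos and above them for Jund in all 3 compartments.

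**Figure D1:**
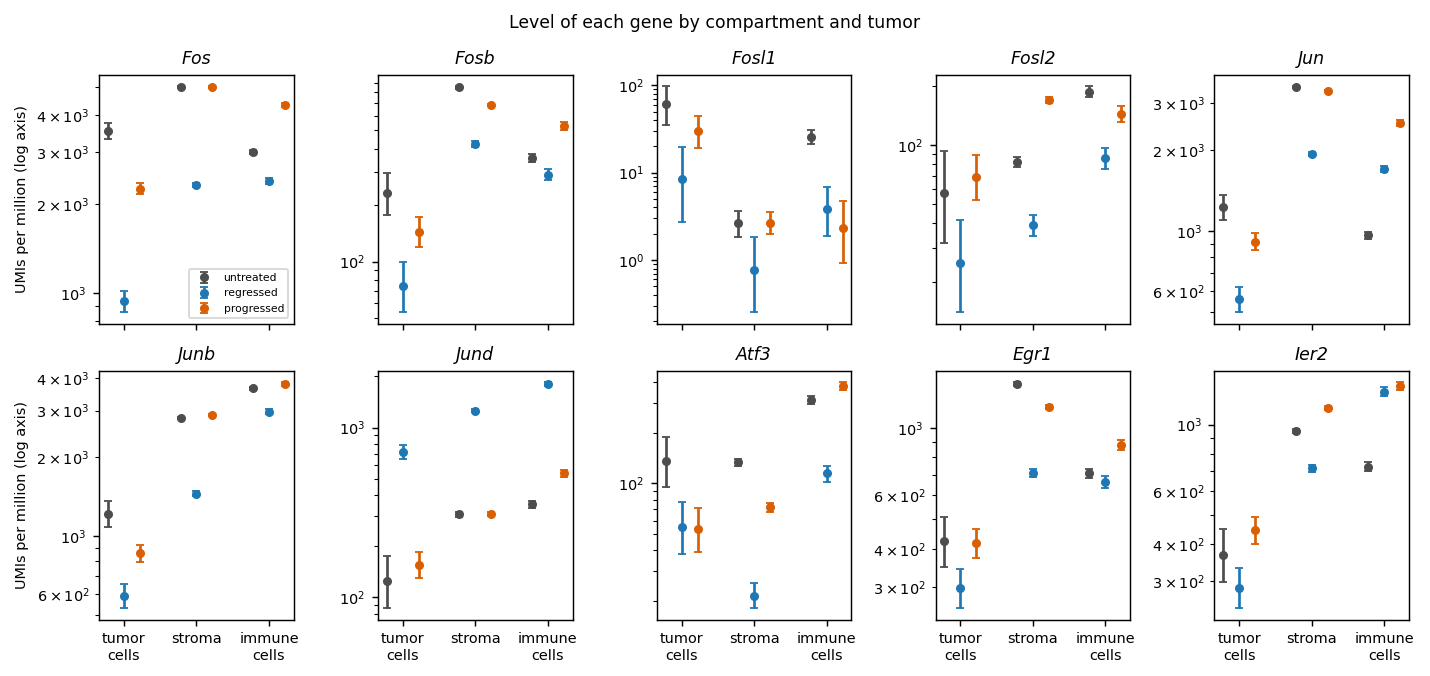
Level of each gene in CPM (y axis, log scale, a separate range for each gene) in tumor cells, stroma and immune cells (x axis) of the untreated, regressed and progressed tumor. Points are sums over all cells of the compartment in 1 tumor and bars are exact Poisson 95% intervals. Jund stood at 722 to 1808 CPM in the regressed tumor and at 125 to 539 CPM in the other tumors, whereas Fos was lowest in the regressed tumor in each compartment.

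Fos encodes the founding Fos protein, a short-lived partner of Jun. In tumor cells it stood at 3539 CPM in the untreated, 935 CPM in the regressed and 2258 CPM in the progressed tumor. In stroma it stood at 4995, 2329 and 5006 CPM. In immune cells it stood at 3009, 2389 and 4340 CPM. The regressed tumor was thus the lowest of the 3 in every compartment, and the stroma of the untreated and the progressed tumor differed by a log2 ratio of 0.0031 (-0.011 to 0.017). Single stroma clusters of the untreated and the progressed tumor went both ways. Fos stood at 7209 and 4810 CPM in Stroma4, 4797 and 4648 CPM in Stroma2 and 3431 and 2608 CPM in Stroma8. It stood at 3433 and 3862 CPM in Stroma3, 3685 and 4387 CPM in Stroma5 and 4163 and 4941 CPM in Stroma6. Regressed against untreated, Fos had a log2 ratio of -1.92 (-2.08 to -1.77) for tumor cells, -1.10 (-1.13 to -1.08) for stroma and -0.33 (-0.37 to -0.29) for immune cells. With every cell thinned to 1000 UMIs and shallower cells left out, Fos was seen in 82.2% (68.0 to 92.0) of 45 untreated, 45.8% (38.0 to 53.7) of 166 regressed and 68.4% (60.4 to 75.6) of 155 progressed tumor cells. Thinning left out 3, 244 and 5 tumor cells. The median depth of all tumor cells before it was 4078, 832 and 4656 UMIs, and the unthinned shares were 93.8%, 49.3% and 92.5%. In the red blood cell cluster of the regressed tumor, a cell type that loses its nucleus, Fos was seen in 75% of 60 cells (31.6% of the 57 kept after thinning) at a median depth of 8464 UMIs. Haemoglobin and mitochondrial genes took 88.6% of the UMIs of these cells, so thinned shares in them are not comparable with those of other cells. Fos stood there at 228 CPM of all UMIs and at 1997 CPM (1651 to 2393) with those genes left out of the total, and the part of carried-over RNA in the regressed levels was not tested.

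Fosb, a Fos relative known for the stable splice form that builds up with repeated stimulation, followed the same order in tumor cells, with 231, 73.8 and 144 CPM. In stroma it stood at 849, 424 and 684 CPM and in immune cells at 356, 290 and 526 CPM, again lowest in the regressed tumor. Fosl2, which encodes Fra-2, stood at 56.8, 25.2 and 69.1 CPM in tumor cells. Its stroma levels were 82.5, 39.2 and 170 CPM, and here the progressed tumor exceeded the untreated one by a log2 ratio of 1.05 (0.95 to 1.14). In immune cells Fosl2 stood at 188, 85.9 and 145 CPM.

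Fosl1, which encodes Fra-1 and responds to sustained ERK activity, was the least abundant of the 10 with 496 UMIs in all. Tumor cells held 60.6 CPM in the untreated, 8.39 CPM in the regressed and 29.8 CPM in the progressed tumor, from 16, 5 and 25 UMIs. The log2 ratio of regressed to untreated in tumor cells was -2.85 (-4.66 to -1.34). In stroma it was at 2.63, 0.778 and 2.67 CPM, and in immune cells at 25.6, 3.81 and 2.33 CPM. Most of the untreated immune signal lay in neutrophils, with 99 UMIs and 65.1 CPM, a cluster with under 20 cells in the progressed tumor. The annotated span of Fosl1 on chromosome 19 overlaps Ccdc85b, which held 11550 UMIs, so a few misassigned reads would weigh more on Fosl1 than on the other 9 genes, whose spans overlap none.

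Jun encodes c-Jun, the most potent activator of the Jun family. In tumor cells it stood at 1228 CPM in the untreated, 559 CPM in the regressed and 917 CPM in the progressed tumor, and in stroma at 3448, 1942 and 3341 CPM. In Tumor1, the tumor cell cluster with at least 20 cells in each tumor, it stood at 1373, 1106 and 917.5 CPM. The progressed tumor was thus the lowest within Tumor1, and Tumor2, with 349 of the 410 regressed tumor cells, held Jun at 373 CPM. In immune cells as a whole Jun stood at 967, 1706 and 2531 CPM, with the untreated tumor the lowest. Mast cells, with under 20 cells in the untreated tumor, held 2568 of the 4927 regressed and 3662 of the 7616 progressed immune Jun UMIs. For Jun the log2 ratio of regressed to untreated came to -1.14 (-1.36 to -0.91) for tumor cells, -0.83 (-0.86 to -0.80) for stroma and 0.82 (0.76 to 0.88) for immune cells, where TMM scaling gave 0.23. Junb, whose protein can dampen Jun activity, stood at 1212, 589 and 856 CPM in tumor cells. Its levels were 2815, 1445 and 2877 CPM in stroma and 3647, 2964 and 3784 CPM in immune cells, lowest in the regressed tumor each time.

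Jund encodes the Jun protein that is present in most resting cells and is less tied to acute stimuli. In tumor cells it stood at 125 CPM in the untreated, 722 CPM in the regressed and 155 CPM in the progressed tumor. In stroma it stood at 308, 1258 and 308 CPM, and in immune cells at 353, 1808 and 539 CPM. The regressed tumor was the highest in each compartment and no interval of it overlapped those of the other tumors. Regressed against untreated, Jund had a log2 ratio of 2.53 (2.02 to 3.09) for tumor cells, 2.03 (1.98 to 2.08) for stroma and 2.36 (2.28 to 2.44) for immune cells, or 2.50, 1.79 and 1.77 with TMM scaling. Progressed against regressed, it was -2.22 (-2.52 to -1.93), -2.03 (-2.08 to -1.98) and -1.75 (-1.83 to -1.67). In thinned cells Jund was seen in 6.67% (1.40 to 18.3) of untreated, 52.4% (44.5 to 60.2) of regressed and 14.2% (9.11 to 20.7) of progressed tumor cells, in 26.1%, 63.7% and 27.8% of stroma cells and in 28.6%, 72.1% and 41.4% of immune cells. Unthinned shares were 39.6%, 49.5% and 43.8% in tumor cells, 66.3%, 84.4% and 68.0% in stroma and 54.4%, 85.1% and 76.1% in immune cells. The red blood cells of the regressed tumor held Jund at 180 CPM of all UMIs, but at 1570 CPM (1266 to 1926) with haemoglobin and mitochondrial genes left out of the total, which lies within the range of the other regressed clusters. They had a Jund UMI in 63.3% of cells, or 10.5% when thinned.

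Because the 3 Jun genes are compared within one library, the share of Jund among their UMIs does not depend on the scaling of totals. Jund made up 4.87% (3.38 to 6.78) of Jun, Junb and Jund UMIs in untreated, 38.6% (35.7 to 41.5) in regressed and 8.03% (6.75 to 9.46) in progressed tumor cells. In stroma its share was 4.68%, 27.1% and 4.72%, and in immune cells 7.10%, 27.9% and 7.86%. In the regressed tumor the share ran from 19.2% in the cluster MitoHigh to 50.6% in cytolytic NK and T cells. The red blood cells of that tumor, at 32.1% (26.7 to 37.8) of few UMIs, lay within this range. In the untreated and the progressed tumor it did not pass 14.4%, the value in untreated macrophages.

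**Figure D2:**
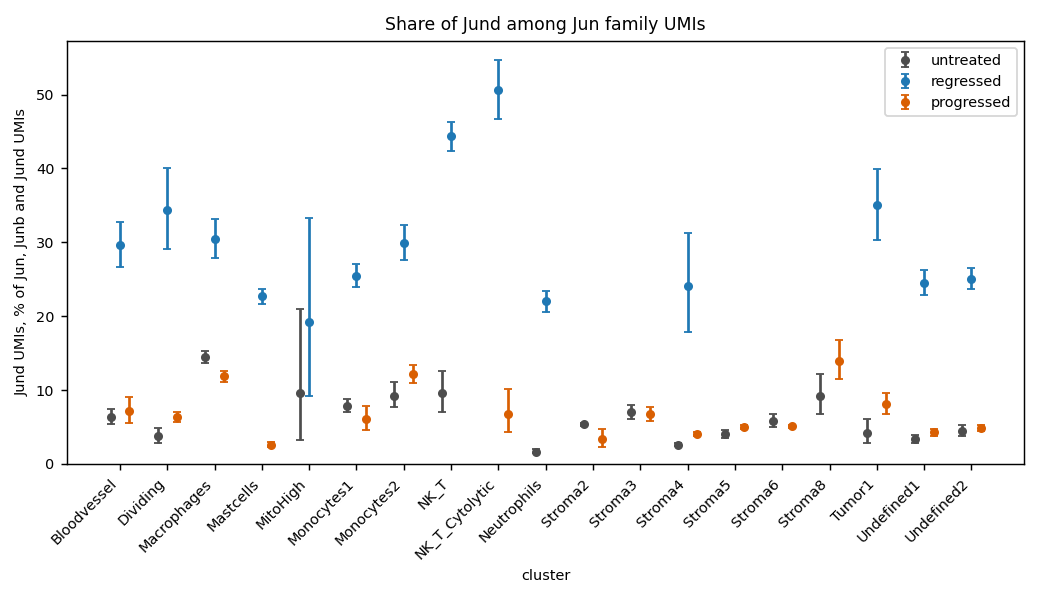
Share of Jund among the UMIs of Jun, Junb and Jund in percent (y axis) for clusters with at least 20 cells in 2 or more tumors (x axis). Points are 1 tumor each and bars are exact binomial 95% intervals. Except in MitoHigh, where the untreated interval overlaps it, each regressed point lies above the points of the other tumors with no overlap of intervals.

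Atf3, a stress-induced leucine zipper factor that often represses, had 136, 55.4 and 53.6 CPM in the tumor cells of the untreated, regressed and progressed tumor. In stroma it stood at 133, 21.5 and 72.0 CPM, a log2 ratio of regressed to untreated of -2.63 (-2.89 to -2.38). In immune cells it stood at 315, 115 and 379 CPM. Its highest levels in the untreated and the progressed tumor were in Undefined1, with 764 and 718 CPM, the cluster with keratinocyte markers, where the regressed tumor held 115 CPM.

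Egr1, a zinc finger factor bound to GC-rich elements and a classical ERK target, was lower in the regressed tumor as well. Tumor cells held 424, 297 and 417 CPM, and the log2 ratio of regressed to untreated was -0.51 (-0.86 to -0.16). Stroma held 1394, 709 and 1172 CPM with a ratio of -0.98 (-1.02 to -0.93), and immune cells held 707, 662 and 879 CPM. Ier2, a small nuclear protein of the immediate early response, stood at 368, 285 and 444 CPM in tumor cells, where the interval of regressed against untreated held 0 (-0.73 to 0.0093). In stroma it stood at 949, 714 and 1133 CPM. In immune cells it stood at 722, 1287 and 1343 CPM, a log2 ratio of regressed to untreated of 0.83 (0.77 to 0.90), or 0.25 with TMM scaling. Mast cells, with under 20 cells in the untreated tumor, held 1556 of the 3718 regressed and 2371 of the 4043 progressed immune Ier2 UMIs.

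The progressed tumor was then compared with the regressed one, a comparison that shares the regressed tumor with the first and so reads its values in part a second time. The sum of the 10 genes gave a log2 ratio of 0.59 (0.52 to 0.67) for tumor cells, 0.73 (0.72 to 0.75) for stroma and 0.36 (0.33 to 0.38) for immune cells. In Stroma4, the stroma cluster that the progressed and the regressed tumor shared, it was 0.085 (-0.071 to 0.24). At least 2-fold higher in the progressed tumor were 3 of 10 genes in tumor cells (Fos, Fosl1 and Fosl2), 4 of 10 in stroma (Fos, Fosl1, Fosl2 and Atf3) and 1 of 9 with enough UMIs in immune cells (Atf3), against 5.54%, 4.99% and 3.91% of features. With TMM scaling the count was 7 in stroma and 4 in immune cells. Jund was the only one at least 2-fold lower, against 11.6%, 15.9% and 16.4% of features. Between the progressed and the untreated tumor the sum differed by -0.47 (-0.54 to -0.39) in tumor cells, -0.021 (-0.029 to -0.012) in stroma, where TMM scaling turned it to 0.04, and 0.49 (0.47 to 0.51) in immune cells. Within the 6 stroma clusters that these tumors shared, the sum went both ways. From untreated to progressed it was lower in Stroma4 (19360 to 14182 CPM), Stroma2 (15626 to 14688 CPM) and Stroma8 (11097 to 9654 CPM). It was higher in Stroma3 (11098 to 12064 CPM), Stroma5 (10343 to 11875 CPM) and Stroma6 (12997 to 16487 CPM). Fosl1 and Atf3 were at least 2-fold lower in progressed than untreated tumor cells and none was higher, against 5.60% and 9.70% of features. That count of 2 was 1 with TMM scaling and 0 in thinned cells. In stroma none was 2-fold lower and Fosl2 was higher, against 5.70% and 3.57%, and in thinned cells Fosl2 fell short of 2-fold with a log2 ratio of 0.90. In immune cells Fosl1 was lower and Jun was higher, with a log2 ratio of 1.39 (1.34 to 1.44), against 5.73% and 9.49%. Neutrophils, with under 20 cells in the progressed tumor, held 99 of the 115 untreated immune Fosl1 UMIs. Mast cells, with under 20 cells in the untreated tumor, held 3662 of the 7616 progressed immune Jun UMIs.

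Compartments mix clusters whose share of cells differed between tumors. Of the 410 regressed tumor cells 349 were in Tumor2, and of the 1918 regressed stroma cells 1537 were in Stroma10 and 310 in Stroma9, clusters with under 20 cells in the other tumors. Among immune clusters, mast cells had under 20 cells in the untreated tumor and neutrophils under 20 in the progressed tumor. Cells of 1 name were therefore compared within the 12 clusters that had at least 20 cells in both the untreated and the regressed tumor. Of the 10 genes, Jund was the only one with a higher level in each cluster tested: its log2 ratio was above 0 with its interval in 11 of 11 clusters with at least 20 UMIs and ran from 0.77 in macrophages to 4.61 in neutrophils, with a median of 2.70. It was at least 2-fold higher in 10 of them, as were 33 of 3698 features (0.892%) tested in at least 10 clusters, whereas 0.0811% were at least 2-fold lower in at least 10. Only in MitoHigh, with 5 and 9 UMIs of Jund, was the number too small.

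Fos was lower in 10 of 12 clusters with an interval that excluded 0, most in Tumor1, where it stood at 3821 CPM in 44 untreated and 947 CPM in 61 regressed cells, a log2 ratio of -2.01 (-2.28 to -1.76). In Stroma4, the stroma cluster shared by both, Fos stood at 7209 CPM in 599 untreated and 3960 CPM in 20 regressed cells. Junb was lower in 9 of 12 clusters, Fosb in 8 of 11 and Atf3 in 8 of 10 with enough UMIs, and the Atf3 ratio reached -3.49 (-4.95 to -2.33) in the cluster named Dividing. Jun, Egr1 and Ier2 were mixed: Jun was lower in 5 and higher in 4 of 12 clusters, Egr1 lower in 5 and higher in 2 of 12, and Ier2 lower in 2 and higher in 5 of 11. The cluster named Dividing had the lowest sum ratio, -1.26, with keratinocyte markers at 11381 CPM in the regressed tumor and 5831 CPM in the untreated one, so its cells were not of 1 makeup.

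**Figure D3:**
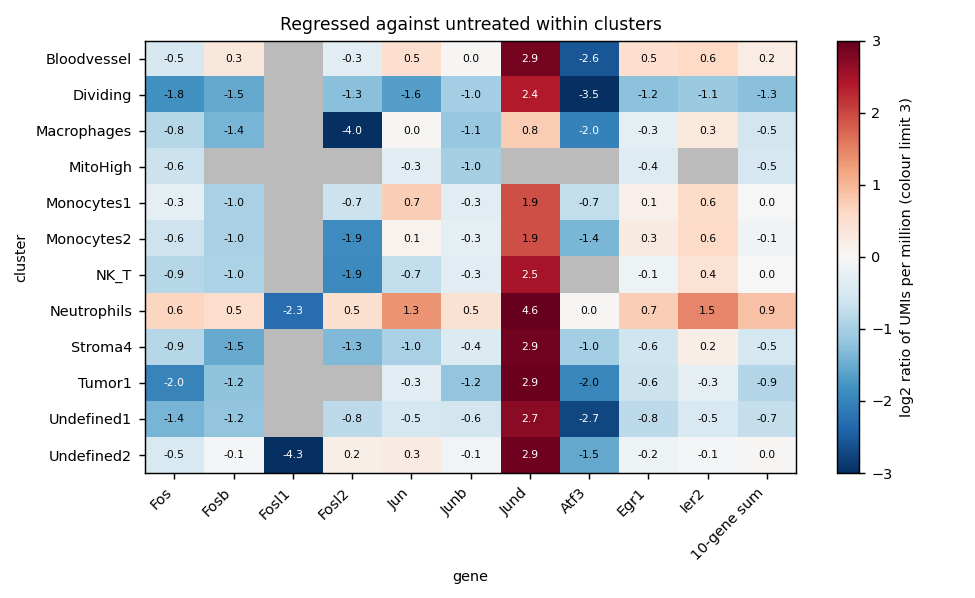
Log2 ratio of CPM, regressed against untreated (color and printed value, color limited at 3), for each gene and the 10-gene sum (x axis) in the 12 clusters with at least 20 cells in both tumors (y axis). Grey cells had under 20 UMIs in the 2 tumors together. The Jund column is above 0 in 11 of 11 clusters, and the neutrophil row is above 0 for each gene shown except Fosl1.

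Neutrophils went the other way for most of the genes. Fos stood at 2302 CPM in 391 untreated and 3586 CPM in 216 regressed neutrophils, a log2 ratio of 0.64 (0.54 to 0.74). Jun stood at 523 and 1321 CPM, a ratio of 1.34 (1.16 to 1.51), and Ier2 at 1029 and 2827 CPM, a ratio of 1.46. Egr1 stood at 934 and 1553 CPM and Junb, at its highest of all clusters in both tumors, at 5637 and 7784 CPM. Jund stood at 105 and 2568 CPM, a ratio of 4.61 (4.36 to 4.87). Jun, Jund and Ier2 were thus at least 2-fold higher, where 30.1% of 5887 features were. A 2-fold rise was therefore no more common among the genes described here than among all features tested in neutrophils. Fosl1 was at least 2-fold lower, where 4.93% of features were. The neutrophil markers themselves summed to 216539 CPM in untreated and 94728 CPM in regressed neutrophils, and the median cell had 3257 and 1252 UMIs, so a smaller share of the total went to these 4 genes in the regressed cells. The part of this in the higher levels was not tested.

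Levels also differed between cell types of 1 tumor. Mast cells held the highest sum wherever they had at least 20 cells, 33540 CPM in 106 regressed and 53030 CPM in 85 progressed cells. In progressed mast cells Junb stood at 14200 CPM, Jun at 12317 CPM, Fos at 12243 CPM, Ier2 at 7975 CPM and Egr1 at 3619 CPM. Regressed mast cells held 7266, 7804, 6093, 4729 and 1817 CPM of the same genes and 4428 CPM of Jund, against 710 CPM of Jund in progressed mast cells. Neutrophils and Stroma4 followed in the regressed tumor with sums of 20398 and 13375 CPM, and Stroma7 and Stroma6 in the progressed tumor with 20688 and 16487 CPM. In the untreated tumor the stroma clusters led, Stroma4 with 19360 CPM, Stroma2 with 15626 CPM and Stroma1 with 13328 CPM. The lowest sums were 6495 CPM in untreated Monocytes2 and 5331 CPM in progressed Tumor1. In the regressed tumor red blood cells were lowest at 1142 CPM, but with haemoglobin and mitochondrial genes left out of the totals they stood at 9984 CPM, rank 15 of 18 from the lowest, and the cluster Dividing was lowest at 2865 CPM. In the order of clusters by the sum, the intervals of 11 of 17 neighboring pairs overlapped in the untreated, 8 of 17 in the regressed and 6 of 16 in the progressed tumor, so those neighbors did not differ beyond counting error.

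The leading cluster depended on the gene. In the untreated tumor Fos (7209 CPM) and Jun (4506 CPM) were highest in Stroma4, Fosb (975 CPM) and Egr1 (1624 CPM) in Stroma2, Junb (5637 CPM) and Fosl2 (244 CPM) in neutrophils, Jund (795 CPM) in macrophages and Atf3 (764 CPM) in Undefined1. With haemoglobin and mitochondrial genes left out of the totals, MitoHigh led for Fosb and Fosl2 instead, from 10 and 3 UMIs. Macrophages also led for Jund in the progressed tumor with 751 CPM, although mast cells, at 710 CPM, did not differ beyond the intervals of both (704 to 800 and 617 to 812). In the regressed tumor mast cells led for Fos, Fosb, Jun, Jund, Egr1 and Ier2 and neutrophils for Junb and Fosl2. The intervals of mast cells and neutrophils overlapped for Junb (6978 to 7563 and 7470 to 8108 CPM) and for Egr1 (1675 to 1969 and 1414 to 1701 CPM).

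**Figure D4:**
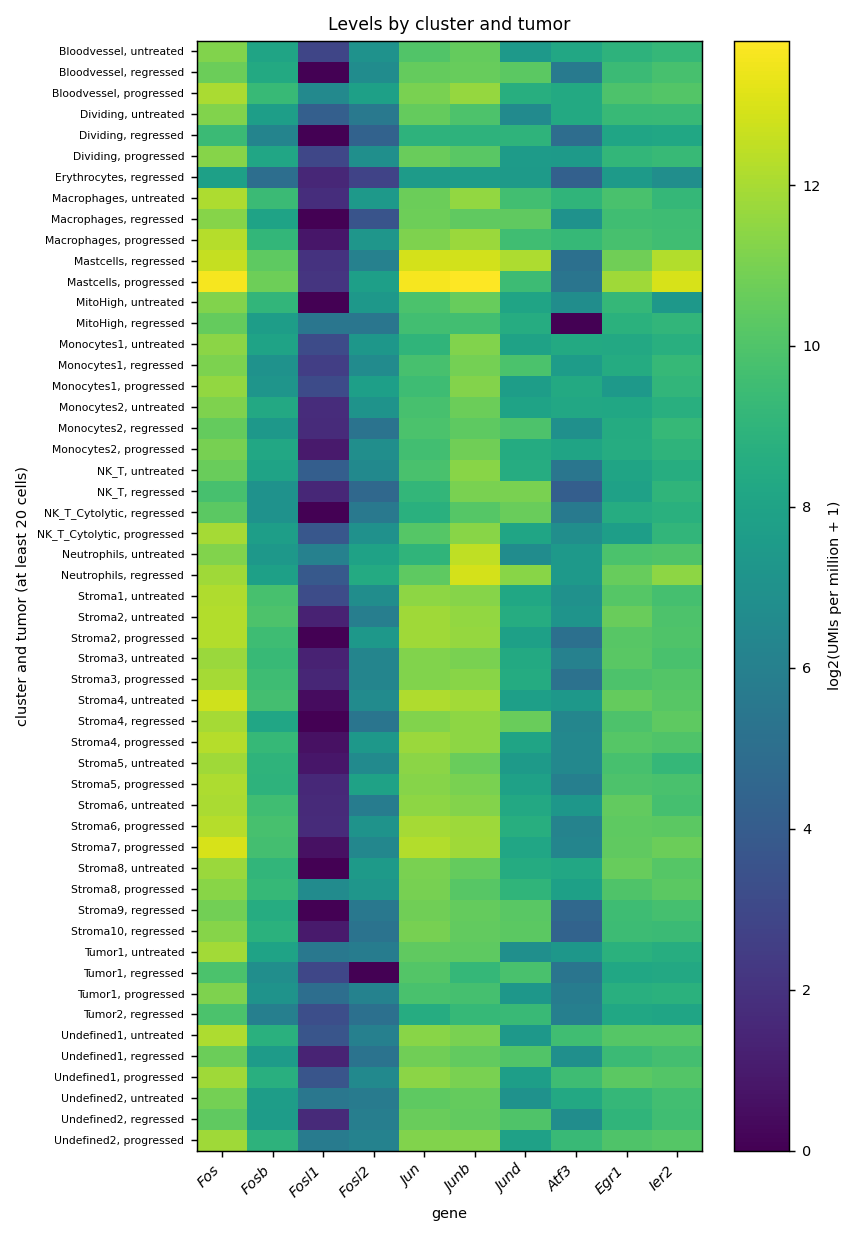
Level of each gene (x axis) as log2 of CPM plus 1 (color) in each of the 53 groups of 1 cluster and 1 tumor with at least 20 cells (y axis). The progressed mast cell row is the brightest for Fos, Jun, Junb and Ier2, the red blood cell row, whose totals are mostly globin, the darkest for Fos, Fosb, Jun, Junb and Ier2, and the Jund column is brightest in rows of the regressed tumor.

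Over the 53 groups the log2 levels of 6 of the genes followed the 10-gene sum, of which they are parts, with Pearson's r of 0.93 for Fos, 0.92 for Junb, 0.89 for Ier2, 0.88 for Jun, 0.87 for Fosb and 0.84 for Egr1. Fosl2 (0.55), Atf3 (0.24), Jund (0.15) and Fosl1 (-0.058) followed it less. Groups share libraries and depth, so these values are descriptions. Among 12964 features with at least 200 UMIs, the 5 other than the 10 genes most like the sum were Zfp36, an mRNA decay factor of the immediate early group, with r of 0.83, Ccnl1, a cyclin linked to splicing, with 0.78, Nfkbiz, an inducible NF-kappaB cofactor, with 0.73, Klf6, a zinc finger factor, with 0.71, and Rhob, a small GTPase, with 0.67. In the 41 groups with at least 50 cells Zfp36, Ccnl1 and Nfkbiz were again the first 3, with r of 0.83 each.

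Other genes of the pathway were read from lists. Of 26 other immediate early genes, 14 of 25 tested in stroma were at least 2-fold lower in the regressed than the untreated tumor and 1 was higher, against 7.09% and 13.7% of features. Their median log2 ratio was -1.17 against 0.14 over all features. Those with the largest ratios were Ccn1, a matricellular protein, from 359 to 54.6 CPM, Gadd45b, a stress protein, from 149 to 34.2 CPM, Socs3, a cytokine signaling inhibitor, from 1611 to 384 CPM, and Dusp1, a MAP kinase phosphatase, from 729 to 204 CPM. In tumor cells 9 of 22 were at least 2-fold lower and 2 higher, against 6.70% and 16.0% of features. Among them were Socs3 (1091 to 149 CPM) and Ier3 (1080 to 185 CPM) lower and Egr2 higher from 1 UMI to 30 UMIs. In immune cells 6 of 25 were lower and 1 higher, against 3.81% and 25.6% of features. Against the regressed tumor, 12 of 25 were at least 2-fold higher in progressed stroma and 0 lower, against 4.99% and 15.9% of features. There Nr4a3, a nuclear receptor, stood at 51.2 against 3.58 CPM, Gadd45b at 189 against 34.2 CPM and the factor Myc at 76.1 against 14.0 CPM. In progressed tumor cells 5 of 24 were at least 2-fold higher and 4 lower than regressed, against 5.54% and 11.6% of features. In immune cells 4 of 24 were higher and 1 lower, against 3.91% and 16.4%. Progressed against untreated, 9 of 23 were lower and 4 higher in tumor cells, against 5.60% and 9.70%, with a median log2 ratio of -0.74. In stroma 0 of 25 were lower and 3 higher, against 5.70% and 3.57%. In immune cells 1 of 25 was lower and 2 higher, against 5.73% and 9.49%.

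Among 18 other leucine zipper factors the picture was mixed, with 3 at least 2-fold higher and 5 lower in regressed than untreated stroma, where 13.7% and 7.09% of features were. Cebpb, an inflammatory C/EBP factor, had tumor cell levels of 22.7, 336 and 16.7 CPM in the same order of tumors, and stood at 57.4, 339 and 51.5 CPM in stroma and at 198, 1356 and 136 CPM in immune cells, so that it was highest in the regressed tumor each time. Batf3, a dimer partner of Jun proteins, went the other way in stroma, with 25.3, 3.11 and 72.4 CPM, and so did the small Maf factor Maff, with 19.8, 2.96 and 50.4 CPM. Of 13 regulators of these promoters, which include the ERK kinases, Srf and its Elk cofactors, 1 was at least 2-fold higher (Elk4, from 10.9 to 38.0 CPM) and 0 lower in regressed stroma, against 13.7% and 7.09% of features, and their summed level was 531 CPM in the untreated, 547 CPM in the regressed and 540 CPM in the progressed tumor.

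Of 16 genes known as AP-1 targets, 6 of 16 were at least 2-fold lower and 0 higher in regressed than untreated stroma, against 7.09% and 13.7% of features. In immune cells 6 of 15 were lower and 1 higher, against 3.81% and 25.6%. In stroma the cytokine Il6 stood at 159 CPM in the untreated, 5.76 CPM in the regressed and 105 CPM in the progressed tumor. In tumor cells, where 2 of 8 were lower and 2 higher (6.70% and 16.0% of features), the chemokine Ccl2 stood at 170 CPM in the untreated and 20.1 CPM in the regressed tumor, while Vegfa, a blood vessel growth factor, stood at 15.2 and 119 CPM. Heat shock genes, which warm dissociation also raises, summed to 1554, 1458 and 1469 CPM in stroma, 2129, 2419 and 2102 CPM in tumor cells and 909, 1162 and 1226 CPM in immune cells. In stroma the progressed and regressed heat shock sums did not differ beyond counting error, with a log2 ratio of 0.010 (-0.024 to 0.045). The order of tumors was that of the 10-gene sum in immune cells, where the order of that sum turned with TMM scaling, but not in tumor cells. The log2 ratio of regressed to untreated heat shock sums was -0.091 (-0.13 to -0.056) for stroma, 0.18 (0.043 to 0.33) for tumor cells and 0.35 (0.29 to 0.42) for immune cells. In regressed stroma 2 of 11 were at least 2-fold higher than in the untreated tumor and 0 lower, against 13.7% and 7.09% of features. The 2 were Hspd1 (9.09 to 34.4 CPM from untreated to regressed) and Hsp90aa1 (23.0 to 46.4 CPM). Hspa1a (52.1 to 26.5 CPM) and Dnajb1 (82.1 to 52.0 CPM) were lower, short of 2-fold, and the median log2 ratio of the 11 was -0.18. The part of the heat shock genes in the levels of the 10 genes was not tested. How long each tumor was handled before capture is not given in the labels, and handling and treatment cannot be told apart with 1 tumor in each group.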

How the data were processed

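Tumors were profiled with the 10x Chromium 3′ v2 kit, 1 library per tumor. The deposited counts are UMIs per Entrez gene and cell. The authors aligned reads to GRCm38 with GSNAP, kept uniquely mapped sense reads over exons, merged UMIs with 1 mismatch and left out cells under 300 UMIs (the lowest cell in the files has 326). The submitters' notes also name Seurat 2.2.0. The annotation release is not given in the sources used here. The deposited cluster labels were used as they stand, and doublets were not treated. Of 36530 features 31049 matched a symbol. Counts were summed per cluster or compartment and tumor and scaled to UMIs per 1000000 UMIs (CPM), with exact Poisson intervals for levels and exact conditional binomial intervals for ratios (95%). Intervals cover counting error only. Groups of 1 cluster in 1 tumor needed 20 cells. Ratios needed 20 UMIs in the 2 tumors to enter a count of at least 2-fold. Where a group had 0 UMIs, 3 UMIs stood in as its floor. Cells were thinned to 1000 UMIs with Clopper-Pearson intervals. Likeness used log2(CPM + 1) of features with at least 200 UMIs. TMM factors came from edgeR 4.0.16 in R 4.3.3, with no edgeR test. Alternatives were TMM, thinning, equal weights per cell or shared cluster, a minimum of 5 UMIs, cells of at least 1000 UMIs, totals without 47 haemoglobin and mitochondrial features, and other summaries of the 10 genes. The genes and lists were chosen with earlier results of these data known. All 10 genes are named, up to 4 genes per list, compartment and comparison with the largest absolute ratio, and the 5 features most like the sum. Scripts ran in Python 3.11.15 with numpy 2.4.6, scipy 1.17.1, pandas 2.3.3 and matplotlib 3.10.9, and were tested on simulated data. A further allele that all 3 tumors share and 1 gene of the AP-1 target list are not reported here.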

Additional observations from a re-analysis of the deposited data

Results flagged for a closer look

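Some ratios pointed in opposite directions in different compartments of the same tumors, with counting intervals on opposite sides of 0. The differences between compartments were not tested, since each group was 1 tumor. Regressed against untreated, the log2 ratio of Jun was 0.82 in immune cells but -1.14 in tumor cells and -0.83 in stroma, and that of Ier2 was 0.83 in immune cells and -0.41 in stroma. Mast cells, with under 20 cells in the untreated tumor, held 2568 of the 4927 regressed immune Jun UMIs and 1556 of the 3718 Ier2 UMIs. In Tumor1, the tumor cell cluster shared by the tumors, Jun stood at 1373 CPM in the untreated and 1106 CPM in the regressed tumor. Progressed against untreated, Fos stood at 0.53 in immune cells and -0.65 in tumor cells. Fosb stood at 0.56 in immune cells, -0.68 in tumor cells and -0.31 in stroma. Fosl2 stood at 1.05 in stroma and -0.37 in immune cells, and Jun at 1.39 in immune cells and -0.42 in tumor cells. Mast cells held 3662 of the 7616 progressed immune Jun UMIs. Junb stood at 0.031 in stroma and -0.50 in tumor cells.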

How the results depend on the processing

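Jund was at least 2-fold higher in the regressed tumor in all 3 compartments with TMM scaling too. Log2 ratios of the 10-gene sum moved more. In tumor cells, regressed against untreated was -1.16 thinned to 1000 UMIs, -1.22 with equal weight per cell, -0.89 over shared clusters, -0.56 without the gene with most UMIs (Fos), -1.16 as the median of the genes and -1.36 without Jund, and 4 rather than 7 genes were 2-fold lower when thinned. Progressed against regressed was 0.72 with TMM, 0.71 thinned, 0.85 with equal weight, 0.31 over shared clusters, 0.24 without the top gene, 0.68 as the median and 0.88 without Jund. Progressed against untreated was -0.37 with TMM, -0.37 with equal weight, -0.58 over shared clusters and -0.32 without the top gene, and 1 gene (TMM) or 0 (thinned) rather than 2 were 2-fold lower. In stroma, regressed against untreated was -1.0 with TMM, -0.83 thinned, -0.79 with equal weight, -0.53 in the shared cluster, -0.61 without the top gene, -0.99 as the median and -0.94 without Jund, with 8 rather than 5 genes 2-fold lower under TMM. Progressed against regressed was 1.04 with TMM, 0.87 thinned, 0.83 with equal weight, 0.085 over shared clusters, 0.57 without the top gene, 0.89 as the median and 0.92 without Jund, with 7 rather than 4 genes 2-fold higher under TMM. Progressed against untreated turned to 0.04 with TMM, 0.046 thinned, 0.044 with equal weight and 0.0015 as the median, was -0.032 without the top gene, and had 0 rather than 1 gene 2-fold higher when thinned. In immune cells, regressed against untreated turned to -0.45 with TMM, -0.30 as the median and -0.064 without Jund, and was 0.16 thinned, 0.17 with equal weight and 0.33 without the top gene (Junb). Progressed against regressed was 0.67 with TMM, 0.38 thinned, 0.39 with equal weight, 0.57 over shared clusters, 0.49 as the median and 0.55 without Jund, with 4 rather than 1 gene 2-fold higher under TMM. Progressed against untreated was 0.22 with TMM, 0.54 thinned, 0.56 with equal weight, 0.10 over shared clusters, 0.69 without the top gene and 0.42 as the median. The cause was not tested. A minimum of 5 UMIs, totals without haemoglobin and mitochondrial genes and cells of at least 1000 UMIs moved none of the ratios of sums and counts run under them, but leaving those genes out of the totals moved 14 of 53 cluster levels of the sum, most in red blood cells (1142 to 9984 CPM), and 37 levels of single genes, while 583 stayed within their intervals. Of 267 ratios of single genes under TMM, thinning or those totals, 87 moved beyond their interval and 10 changed sign, each under 2-fold. The sums without Jund, the single-gene ratios and the alternatives of progressed against untreated sums were chosen after seeing the data. No paired analysis was possible because each group was 1 tumor, and for the same reason no replicate could be left out. Depth limits Fosl1, with 496 UMIs in all, the 48 untreated tumor cells, and the regressed tumor cells, whose median was 832 UMIs.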

Other observations

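The following genes were chosen after the values of Jund were seen and are given as values only. Among the 33 features at least 2-fold higher in the regressed than the untreated tumor in at least 10 of 12 shared clusters, Mir6236 had the highest median log2 ratio, 5.74. The mast cell proteases Tpsb2 and Cma1 had medians of 5.35 and 4.33, the globin Hbb-bs 5.35 and the feature 19791, which matched no symbol, 4.50. The antigen presentation genes H2-Ab1 and Cd74 stood at 3.09 and 2.87, ahead of Jund at 2.70. The 3 features lower in at least 10 clusters were Xist, with a median of -6.68, S100a9, a neutrophil alarmin, with -1.22, and Rack1, a ribosomal scaffold protein, with -1.19. Over the 53 cluster and tumor groups, the features whose log2 level was most like that of Jund were Eif2s3y (r = 0.80), Pnrc1 (0.79), Txnip (0.79), Mir6240 (0.75) and Uty (0.74). In the 41 groups with at least 50 cells they were Otulin (0.84), Ppp1r10 (0.84), Mlycd (0.83), Uty (0.82) and Chd2 (0.82), so 1 of the 5 was shared. Eif2s3y and Uty lie on the Y chromosome, and the sex of the mice is not given in the labels. Groups share libraries, and Jund was highest in the regressed tumor in each compartment. These r values are therefore descriptions and cannot tell likeness to Jund from a difference between libraries.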
